A study of Mus musculus with 8 samples.

Results

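Among the 80474 cells kept from 8 mouse livers, 288 carried the RNA of von Willebrand factor (Vwf), a large glycoprotein that endothelial cells of the bigger vessels and megakaryocytes make, together with endothelial receptors. They were chosen barcode by barcode. A cell had to show more than 500 genes and under 25% mitochondrial unique molecular identifiers (UMIs, the tags that mark single captured RNA molecules). It also had to hold at least 2 UMIs of Vwf and at least 1 UMI in the sum of Ptprb, Kdr and Egfl7, 3 endothelial genes, and none of Csf1r, Cd3e or Cd79a, which mark macrophages, T cells and B cells. Only mice with 20 or more such cells were taken, which left 106 cells of HFD+F+CCl4 replicate 1, 49 cells of HFD+F+CCl4 replicate 2 and 133 cells of WD+F+CCl4 replicate 3. A further 51 cells met the rule in the 5 other mice and were used only for the shares of cells. Since the rule reads Vwf, Ptprb, Kdr, Egfl7, Csf1r, Cd3e and Cd79a, these 7 genes were not tested. The levels of Vwf, Ptprb, Kdr and Egfl7 are described below.

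The study measured single-cell transcriptomes of whole liver in control mice and in mice with nonalcoholic steatohepatitis (NASH) and fibrosis. All mice were C57BL/6, and the paper calls the control mice wild-type. The 2 control mice received normal diet and drinking water, the 3 HFD+F+CCl4 mice a high-fat diet with fructose solution, and the 3 WD+F+CCl4 mice a western diet with fructose solution, and both model groups also had intraperitoneal carbon tetrachloride, a hepatotoxin. Livers were digested with collagenase and papain, and the cells were strained, treated to lyse red blood cells, freed of dead cells with magnetic beads and loaded on droplets with no sort by cell type. How far these steps kept each vessel type was not tested. In each model the diet, the fructose and the toxin were given together and cannot be told apart.

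The vascular endothelium of the liver is divided by position. Blood arrives through the portal vein and the hepatic artery, passes the fenestrated sinusoids, and leaves through the central veins. Endothelial cells of the larger vessels store von Willebrand factor and P-selectin in Weibel-Palade bodies, central vein endothelium secretes Wnt ligands and the Wnt enhancer R-spondin 3 (Rspo3) that pattern neighboring hepatocytes, and sinusoidal cells take up waste through the scavenger receptors Stab1 and Stab2. The arterial side is marked by Notch ligands and by the gap junction protein of the gene Gja5.

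The library totals ranged from 6135827 UMIs in control replicate 2 to 64855024 UMIs in WD+F+CCl4 replicate 3. The members of the 3 mice summed to 489693, 220575 and 720586 UMIs, with medians of 3950, 3455 and 4381 UMIs per cell in HFD+F+CCl4 replicates 1 and 2 and WD+F+CCl4 replicate 3. Values for the 3 mice are given in this order throughout. Barcode sequences of 9 members also occurred in another library, and 0 of them belonged to another member. Ranking by simulated doublet scores marked 13 members, or 4.51% of them, against 9.26% of all kept cells. Control replicate 2 stood apart. It had a median of 992.5 UMIs per kept cell, and among its cells that passed the endothelial part of the rule only 25.4% held a UMI of Pecam1 or Cdh5, 2 junction genes of endothelium, beside 24.5% of its T cells. The share of such gated cells was 47.0% in control replicate 1 and 68.4%, 52.5% and 36.6% in HFD+F+CCl4 replicates 1, 2 and 3. In WD+F+CCl4 replicates 1, 2 and 3 it was 40.9%, 39.3% and 79.1%. T cells of these mice were at 7.63% to 22.6%. In every mouse part of the gated cells thus held neither gene.

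The label was checked on genes that the rule does not read. Of the members, 90.6% held a UMI of Pecam1 and 88.2% one of Cdh5, beside 9.70% and 4.82% of T cells in the same libraries, whose median depth was 2653 UMIs against 4014 UMIs in the members. Markers of platelets and of other cells of the vessel wall were partly at 0 and partly present. Pf4, a platelet chemokine, was seen in 4.51% of members beside 4.21% of T cells, and the platelet genes Gp1bb and Treml1, the pericyte and stellate genes Pdgfrb and Pdgfra, the mesothelial genes Msln, Upk3b and Wt1, and the bile duct genes Krt19 and Krt7 had 0 UMIs in all 288 cells. Other genes of these lists were present, among them the mesothelial gene Gpm6a at 174, 408 and 74.9 CPM, the UMIs of a gene scaled to a common total of UMIs per population and mouse, in the 3 mice, and the stellate gene Ecm1 at 206, 240.3 and 142 CPM. Rgs5 and Col3a1, also stellate genes, had 7 and 23 UMIs in all members. The members were not uniform, since 39.2% held a UMI of the sinusoidal gene Stab2 and 60.8% one of Clec4g, beside 4.21% and 5.25% of T cells.

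The rule's threshold was a gradual one. The members held between 2 and 65 Vwf UMIs, with a median of 6. Just inside the limit, 65 members had 2 Vwf UMIs, and 29.2% of these held Rspo3, 63.1% Stab2 and 80.0% Pecam1. Just outside, 169 cells of the same gate had 1 Vwf UMI, and 21.9% held Rspo3, 64.5% Stab2 and 71.0% Pecam1. Of the 485 cells of the 3 mice with enough Vwf and endothelial UMIs, 197 were left out for a UMI of Csf1r, Cd3e or Cd79a. These 197 had a median of 7754 UMIs, and 87.8% held Pecam1, 92.4% the myeloid gene Lyz2 and 55.8% the leukocyte gene Ptprc, beside 90.6%, 77.4% and 9.72% of the members. T cells with a Csf1r UMI made up 22.9% to 33.9% of T cells in the same 3 libraries.

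How frequent these cells were was asked in all 8 mice. As a share of kept cells they made up 0.121% in control replicate 1 (13 of 10788 cells, 95% Clopper-Pearson interval 0.0642% to 0.206%), and 0 of 4168 in control replicate 2 (interval up to 0.0885%, and 0.0720% by a floor of 3 counts). The shares were 0.948%, 0.484% and 0.150% in HFD+F+CCl4 replicates 1, 2 and 3, and 0.0583%, 0.152% and 1.14% in WD+F+CCl4 replicates 1, 2 and 3. Of the 6 NASH mice, 5 lay above both control mice, and WD+F+CCl4 replicate 1 lay below control replicate 1. The means were 0.488 ± 0.456% (SD, n = 6) and 0.0603 ± 0.0852% (SD, n = 2), and the difference did not pass an exact two-sided permutation test (p = 0.179, adjusted p = 0.357 over 4 share comparisons). A share of all cells moves with how many blood and immune cells were caught, so the members were also counted among the endothelial-gated cells, those that meet the whole rule apart from Vwf.

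Among endothelial-gated cells the members were 1.40% in control replicate 1 (13 of 931, interval 0.746% to 2.38%) and 0 of 984 in control replicate 2 (interval up to 0.374%, and 0.305% by the floor of 3 counts). In the HFD+F+CCl4 mice they were 8.01% (106 of 1324, interval 6.60% to 9.60%), 18.8% (49 of 261, interval 14.2% to 24.0%) and 17.2% (16 of 93, interval 10.2% to 26.4%). In the WD+F+CCl4 mice they were 10.6% (7 of 66, interval 4.37% to 20.6%), 16.9% (15 of 89, interval 9.75% to 26.3%) and 10.8% (133 of 1235, interval 9.09% to 12.6%). All 6 NASH mice lay above both control mice, and the intervals, which cover counting error only, did not overlap those of the controls. Among endothelial-gated cells with Pecam1 or Cdh5, thinned to 1000 UMIs, they did for HFD+F+CCl4 replicate 1, at 7.47% (interval 5.63% to 9.68%). Control replicate 1 was there at 4.29% (interval 2.08% to 7.75%). Among endothelial-gated cells with more than 1000 genes, the interval of WD+F+CCl4 replicate 1 (2.72% to 18.1%) overlapped those of both control mice. These reached up to 4.495% in control replicate 1 and 3.73% in control replicate 2. The means of 13.7 ± 4.44% (SD, n = 6) and 0.698 ± 0.987% (SD, n = 2) differed by 13.0 percentage points (exact permutation p = 0.0357, two-sided, the smallest that 2 against 6 mice allow), and the adjusted p over the 4 share comparisons was 0.143. By the same exact permutation test, thinning each cell to 1000 UMIs gave a larger difference of 20.7 percentage points with p = 0.107, and asking for a UMI of Pecam1 or Cdh5 gave 27.4 percentage points with p = 0.0714, and in both all 6 NASH mice still lay above both control mice. Asking for Pecam1 or Cdh5 left 34 gated cells in HFD+F+CCl4 replicate 3, and 27 and 35 in WD+F+CCl4 replicates 1 and 2. Leaving out either control mouse gave 12.3 or 13.7 percentage points with an exact permutation p = 0.143, the smallest that 6 against 1 mice allow. Between the models the shares differed by -1.92 percentage points (WD+F+CCl4 minus HFD+F+CCl4, exact permutation p = 0.8) among endothelial-gated cells and by -0.0789 percentage points (p = 0.9) among kept cells, where 3 against 3 mice cannot go below p = 0.1. Of T cells, 0 to 2.01% per mouse held any Vwf UMI and 0 to 0.430% held 2 or more, the highest in HFD+F+CCl4 replicate 2 for both. The part of free RNA in the shares was not tested.

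**Figure D1:**
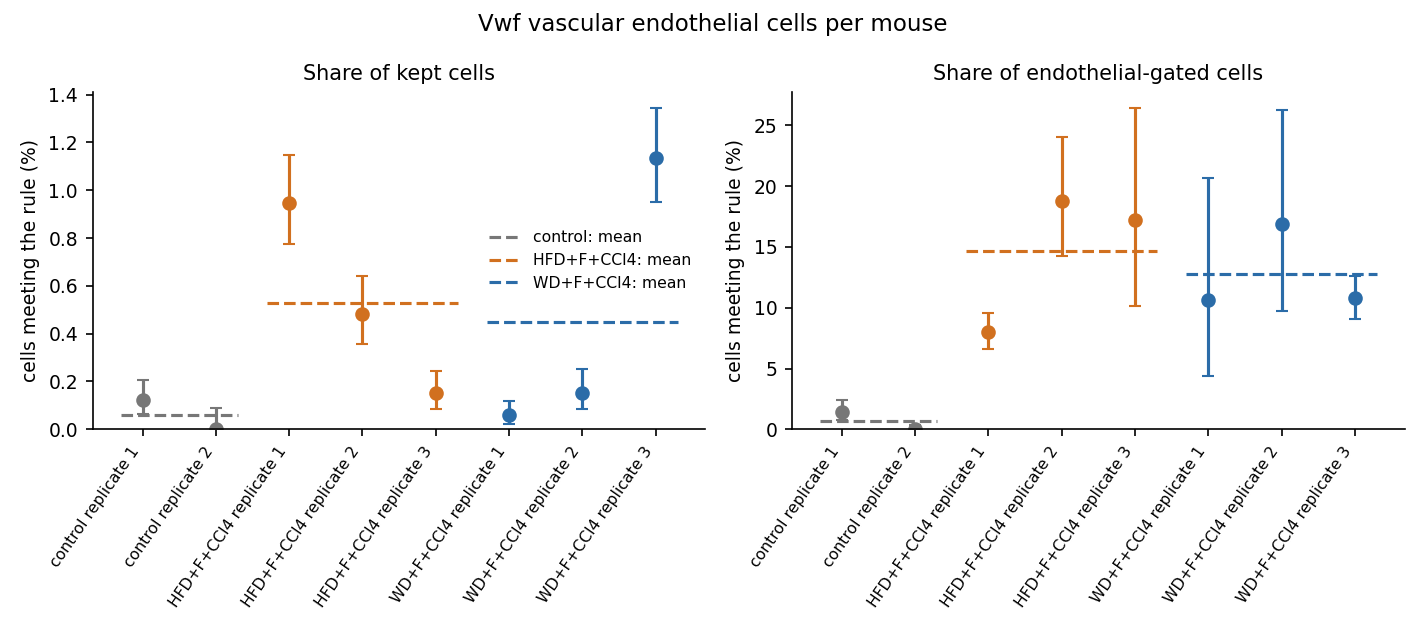
Share of cells that met the Vwf rule in each of the 8 mice, as a percentage of all kept cells and as a percentage of endothelial-gated cells, with exact 95% binomial intervals as error bars and dashed lines for group means. Among endothelial-gated cells the 6 NASH mice sit between 8.01% and 18.8% and the control mice at 1.40% and 0%.

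Which genes set the members apart from sinusoidal cells was asked within each of the 3 mice, against the sinusoidal cells of the same mouse (600, 46 and 720 cells with at least 2 UMIs of Stab2 and Clec4g together and 0 of Vwf). Other endothelial-gated cells below the Vwf limit were not in this comparison. The members were higher in 12 of 13 central vein and venous genes tested, such as Rspo3 and Wnt9b, in 9 of 13 arterial and portal genes, such as Gja5 and Adgrg6, and in 12 of 15 shear stress and vessel tone genes, such as Ednrb, and lower in 13 of 16 sinusoidal genes, such as Fcgr2b and Bmp2. UMIs were summed per mouse and population, and 8197 genes were tested with the mouse as a block. At an adjusted p under 0.05, 716 genes differed, or 8.73% of those tested. Of these, 407 (4.97% of the genes tested) were higher and 309 (3.77%) lower in the members, and 600 of the 716 had values that did not overlap over the mice. The members were gated on Vwf and not on Stab2 or Clec4g, and the sinusoidal cells on Stab2 and Clec4g and on the absence of Vwf, so genes that go with these differ by construction, and the 9 genes of the 2 rules were not tested. The comparison describes the 2 gated populations and is not evidence that they are separate cell types. All gene lists were chosen with earlier results of these data known. An adjusted p here says only whether a difference exceeded the spread between 3 mice, with 2 residual degrees of freedom. Without the mouse block 341 genes passed, all of them among the 716, and 371 passed without WD+F+CCl4 replicate 3 and 1146 without HFD+F+CCl4 replicate 2.

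The genes of the rule are given as a description. Vwf (chr6:125546774-125686679 of GRCm38) stood at 1662, 3446 and 1811 CPM in the members of the 3 mice and at 0 in the sinusoidal cells, where the rule sets it. Ptprb, a receptor phosphatase of vascular endothelium, stood at 4109, 4461 and 3729 CPM in the members and 2777, 2361 and 2532 CPM in the sinusoidal cells. For Kdr, the main VEGF receptor, the values were 1201, 589 and 1285 CPM in the members and 2197, 2026 and 2265 CPM in the sinusoidal cells, which were higher in each mouse. Egfl7, a secreted endothelial protein, was at 1466, 1247 and 1307 CPM in the members, in each mouse a little below its sinusoidal value of 1501, 1562 and 1659 CPM. Stab2 was at 410.5, 36.3 and 572 CPM in the members and 1497, 1348 and 1760.0 CPM in the sinusoidal cells, lowest in the members of HFD+F+CCl4 replicate 2.

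Central vein and venous genes were nearly all higher in the members. All 13 of the list were tested, 12 were higher in the members and 0 lower, with a median log2 fold change of 1.68 beside -0.01 over all genes tested. Rspo3 was at 1675, 2376 and 999 CPM in the members of the 3 mice and at 56.6, 107 and 37.9 CPM in their sinusoidal cells. The members of WD+F+CCl4 replicate 3 were lowest, yet stood far above every sinusoidal value. The log2 fold change of Rspo3 was 4.72 ± 0.20 (SE, edgeR adjusted p = 3.3e-10). Wnt9b, a Wnt ligand of the central vein, was at 263, 553 and 203 CPM against 9.87, 22.9 and 18.3 CPM, and this difference was also larger than the spread between mice (log2 fold change 3.99 ± 0.24 (SE), edgeR adjusted p = 2.0e-08). P-selectin, the gene Selp, which catches rolling leukocytes, was at 288, 544 and 215 CPM against 37.9, 53.3 and 62.02 CPM (log2 fold change 2.42 ± 0.23 (SE), edgeR adjusted p = 3.0e-06). For both genes every member value lay above every sinusoidal value. Cdh13, the adiponectin-binding T-cadherin, was at 447, 458 and 337 CPM against 66.99, 91.4 and 84.2 CPM (log2 fold change 2.33 ± 0.19 (SE), edgeR adjusted p = 5.5e-07). The gene that did not pass was Nr2f2, a transcription factor of venous identity, at 1158, 975 and 1175 CPM in the members and 752, 868 and 854 CPM in the sinusoidal cells (log2 fold change 0.42 ± 0.17 (SE), edgeR adjusted p = 0.16).

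Arterial and portal genes were higher in 9 of 13 tested, of 17 in the list, and lower in 0, with a median log2 fold change of 2.46. Gja5, at chr3:96904693-97077416, gave 89.9, 172 and 117 CPM in the members and 1.56, 0 and 0 CPM in the sinusoidal cells, the latter from 3 UMIs in all. No sinusoidal value came near the members. The ratio of the summed shares was 198, with a counting interval of 66.6 to 970, and the edgeR adjusted p was 4.2e-08. Adgrg6, an adhesion receptor, was at 143, 267 and 222 CPM against 10.4, 7.62 and 7.18 CPM (log2 fold change 4.45 ± 0.25 (SE), edgeR adjusted p = 1.1e-08). Edn1, which encodes the vasoconstrictor endothelin, was at 551, 1410.0 and 883 CPM against 47.8, 53.3 and 31.3 CPM (log2 fold change 4.24 ± 0.26 (SE), edgeR adjusted p = 2.2e-08), highest in HFD+F+CCl4 replicate 2. The members of all 3 mice lay above every sinusoidal sum for both genes. Bmx, a kinase of arterial endothelium, was at 75.6, 181 and 48.6 CPM against 0.519, 7.62 and 0.653 CPM (log2 fold change 6.08 ± 0.43 (SE), edgeR adjusted p = 1.2e-07). Both Bmx and Edn1 were also present in the venous-like cluster of members described below. Dll4, a Notch ligand, overlapped between the populations, at 159, 45.3 and 161 CPM in the members and 193, 107 and 144 CPM in the sinusoidal cells, and did not pass (log2 fold change -0.17 ± 0.20 (SE), edgeR adjusted p = 0.71), and Ltbp4, Efnb2 and Sox17 did not pass either.

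**Figure D2:**
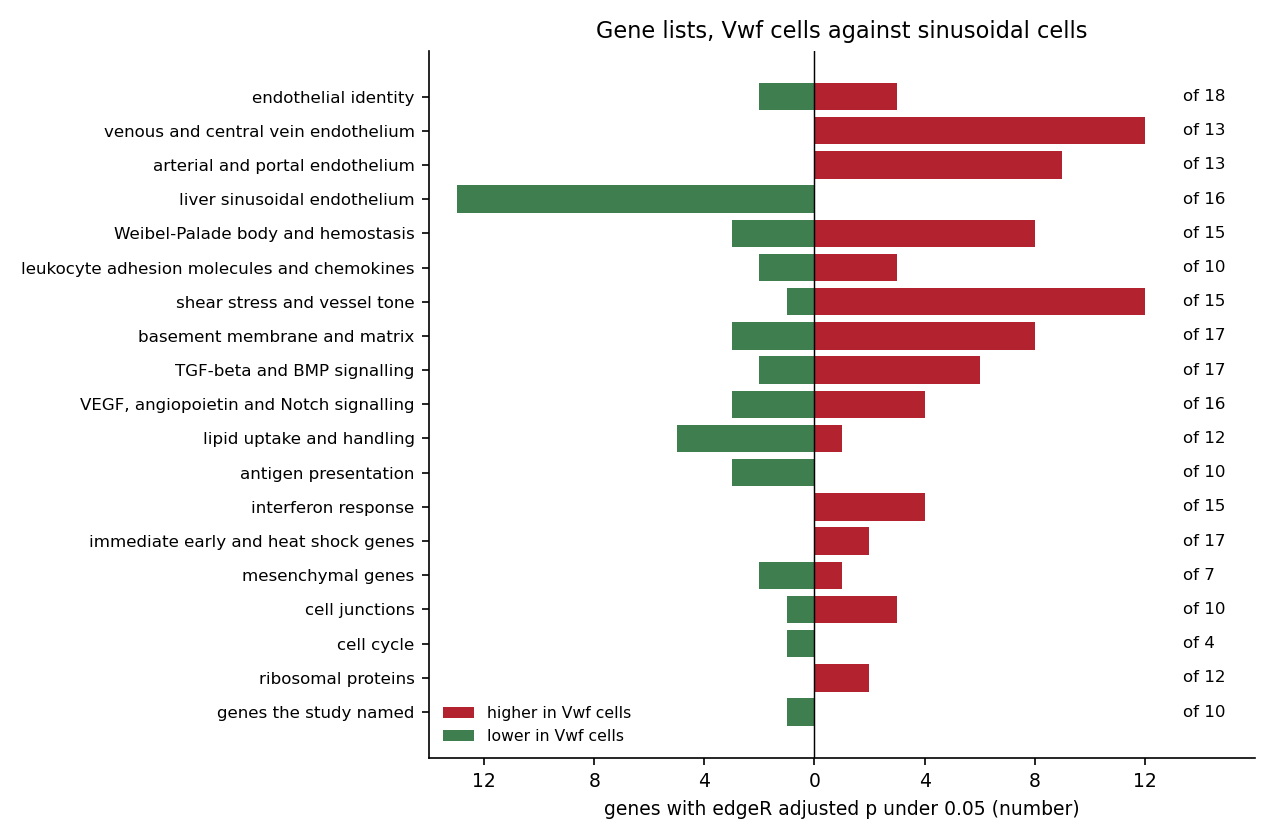
Number of genes of each list that were higher (red, right) or lower (green, left) in the members than in the sinusoidal cells (edgeR, adjusted p under 0.05), with the number tested beside each bar. The venous list has 12 of 13 genes higher, the arterial list 9 of 13, and the sinusoidal list 13 of 16 lower.

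Sinusoidal genes were lower in 13 of 16 tested and higher in 0, with a median log2 fold change of -1.42. This list overlaps with what the gate selects, since Stab2 and Clec4g belong to it and define the other population. Fcgr2b, an inhibitory Fc receptor, was at 621, 236 and 872 CPM in the members and 1767, 1622 and 2251 CPM in the sinusoidal cells (log2 fold change -1.81 ± 0.23 (SE), edgeR adjusted p = 5.4e-05). Bmp2, the sinusoidal signal for hepcidin in hepatocytes, was at 359, 127 and 568 CPM against 1140.0, 1044 and 1276 CPM (log2 fold change -1.81 ± 0.25 (SE), edgeR adjusted p = 1.5e-04). Flt4, a receptor for VEGF-C, was at 382, 145 and 475 CPM against 905, 1021 and 1145 CPM (log2 fold change -1.64 ± 0.24 (SE), edgeR adjusted p = 2.1e-04), and the hyaluronan receptor Lyve1 at 219, 4.53 and 318 CPM against 641, 343 and 849 CPM (log2 fold change -1.86 ± 0.32 (SE), edgeR adjusted p = 0.0010). In each of these genes the members of HFD+F+CCl4 replicate 2 were lowest. Gata4, the transcription factor of sinusoidal identity, did not pass, at 274, 186 and 248 CPM in the members and 196, 175 and 211 CPM in the sinusoidal cells. F8, coagulation factor VIII, did not pass either, at 649, 485 and 809 CPM in the members and 761, 518 and 1009 CPM in the sinusoidal cells. Flt4 and Lyve1 were also the only lymphatic genes of 7 that could be tested, and Prox1, the lymphatic master regulator, was seen in 3.12% of members. The count of 13 fell to 3 without the mouse block and to 6 with DESeq2.

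By the rule for named genes, the 8 largest rises were Cpe, Fmo2, Bmp4, Fndc1, Gja5, Nts, Rassf9 and Fbln2. Cpe, a carboxypeptidase of peptide hormones, had 22.5, 304 and 77.7 CPM in the members and 0 UMIs in every sinusoidal sum. Fmo2, a flavin monooxygenase, was at 345, 1133 and 358 CPM against 2.08, 0 and 0.326 CPM (log2 fold change 8.39 ± 0.35 (SE), edgeR adjusted p = 2.8e-10). The members of HFD+F+CCl4 replicate 2 were highest in both. Bmp4, a secreted BMP ligand (chr14:46383520-46390669), was at 562, 644 and 284 CPM against 4.15, 0 and 0.653 CPM (log2 fold change 7.58 ± 0.31 (SE), edgeR adjusted p = 2.8e-10). Nts, the precursor of neurotensin, was the least variable of these over mice, at 241, 204 and 269 CPM against 2.60, 0 and 1.96 CPM (log2 fold change 6.80 ± 0.27 (SE), edgeR adjusted p = 2.8e-10). Fndc1 and Rassf9 rested on 2 and 3 sinusoidal UMIs, with ratios of 272 (counting interval 74.0 to 2266) and 161 (counting interval 53.9 to 790.6). Fbln2, a fibulin of the vessel wall, was at 907, 2017 and 910.4 CPM against 16.1, 0 and 6.85 CPM (log2 fold change 6.53 ± 0.32 (SE), edgeR adjusted p = 2.2e-09).

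**Figure D3:**
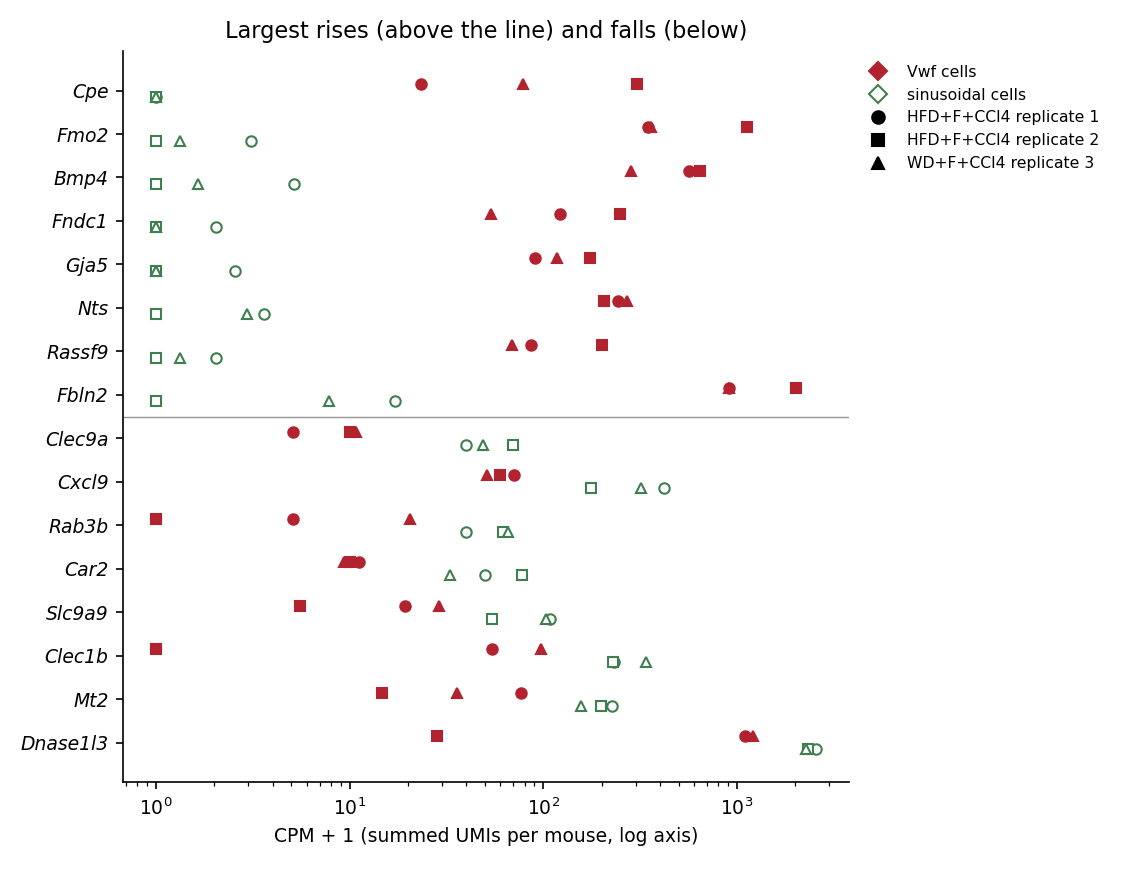
Level of the 16 named genes in each of the 3 mice on a log axis of CPM plus 1, with points for the members and for the sinusoidal cells of the same mouse. The 8 genes that rose are separated by more than the spread of the mice, and HFD+F+CCl4 replicate 2 is lowest among the members in Rab3b, Slc9a9, Clec1b, Mt2 and Dnase1l3.

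The 8 largest falls were Clec9a, Cxcl9, Rab3b, Car2, Slc9a9, Clec1b, Mt2 and Dnase1l3. Cxcl9, a chemokine that draws T cells, was at 69.4, 58.9 and 49.96 CPM in the members and 422, 175 and 319.6 CPM in the sinusoidal cells (log2 fold change -2.49 ± 0.22 (SE), edgeR adjusted p = 1.2e-06). Clec1b, the receptor of podoplanin, was at 53.1, 0 and 95.8 CPM against 230.1, 229 and 338 CPM (log2 fold change -2.22 ± 0.30 (SE), edgeR adjusted p = 1.4e-04). Dnase1l3, a secreted DNase that clears chromatin from blood, was at 1099, 27.2 and 1206 CPM against 2553, 2316 and 2267 CPM (log2 fold change -2.02 ± 0.53 (SE), edgeR adjusted p = 0.024). Its level in the members of HFD+F+CCl4 replicate 2 was far below that in the other mice, and these members also had the lowest share with Stab2. Mt2, a metallothionein, was at 75.6, 13.6 and 34.7 CPM against 225, 198 and 156 CPM (log2 fold change -2.07 ± 0.25 (SE), edgeR adjusted p = 3.3e-05). Rab3b, Car2, Slc9a9 and Clec9a lay between -2.64 and -2.23 on the log2 scale.

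The promoters of Wnt9b, Gja5, Bmp4 and Clec1b are shown as examples of a venous gene, an arterial gene and a secreted ligand that were higher in the members and a sinusoidal gene that was lower. The 250 bases before the start site are taken from RefSeq (GRCm38.p6), 5′ to 3′ on the gene's strand, with the start as RefSeq gives it, and capitals mark GGAA, the core of ETS factors that endothelial genes often carry, or its reverse complement TTCC. Of 17 genes, the 8 largest rises, the 8 largest falls and Vwf, 12 had a promoter in the table. Wnt9b is not one of these 17 and was taken in addition. The RefSeq start of Gja5 lies inside the GENCODE span of the gene given above, while the other 3 windows adjoin the starts of theirs.
Wnt9b, chr11:103749822-103750071, minus strand: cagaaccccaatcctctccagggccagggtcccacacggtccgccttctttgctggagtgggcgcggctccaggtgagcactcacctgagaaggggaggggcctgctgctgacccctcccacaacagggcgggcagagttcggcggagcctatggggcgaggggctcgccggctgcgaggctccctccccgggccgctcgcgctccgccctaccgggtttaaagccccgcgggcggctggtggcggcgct
Gja5, chr3:97032152-97032401, plus strand: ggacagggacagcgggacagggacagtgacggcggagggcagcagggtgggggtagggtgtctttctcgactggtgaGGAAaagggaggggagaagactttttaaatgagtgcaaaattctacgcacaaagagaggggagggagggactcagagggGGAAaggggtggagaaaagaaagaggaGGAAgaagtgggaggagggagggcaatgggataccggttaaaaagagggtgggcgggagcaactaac
Bmp4, chr14:46390670-46390919, minus strand: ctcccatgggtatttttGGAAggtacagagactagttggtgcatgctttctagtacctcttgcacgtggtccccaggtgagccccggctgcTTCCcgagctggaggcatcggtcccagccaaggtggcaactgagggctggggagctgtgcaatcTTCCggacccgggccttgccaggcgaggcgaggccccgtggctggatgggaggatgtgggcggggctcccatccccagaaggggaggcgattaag
Clec1b, chr6:129397047-129397296, plus strand: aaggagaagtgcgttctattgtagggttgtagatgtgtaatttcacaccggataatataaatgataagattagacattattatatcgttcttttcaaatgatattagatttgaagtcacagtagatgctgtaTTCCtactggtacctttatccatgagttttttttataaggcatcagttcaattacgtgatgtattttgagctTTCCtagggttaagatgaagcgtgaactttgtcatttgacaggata
GGAA was found 0 times before Wnt9b, 3 times before Gja5, 3 times before Bmp4 and 2 times before Clec1b. Of 32851 promoters of the same length in the table, 93.5% hold GGAA, with a median of 3, so none of these counts lies above the median. CACCC, letters bound by KLF factors, was found 4 times before Gja5 and 0 times before the other genes, and 52.0% of promoters hold it. The letters AGATAA (9.99% of promoters) and TGANTCA (6.75%) are in none of these windows. Both strands were searched.

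Weibel-Palade body and hemostasis genes were higher in 8 and lower in 3 of 15 tested, with a median log2 fold change of 0.98. Entpd1, which degrades extracellular ATP and ADP, was at 329, 598 and 329 CPM in the members and 25.4, 38.1 and 32.3 CPM in the sinusoidal cells (log2 fold change 3.52 ± 0.19 (SE), edgeR adjusted p = 7.7e-09). Procr, the receptor for activated protein C, was at 49.01, 81.6 and 103 CPM against 14.02, 15.2 and 15.3 CPM (log2 fold change 2.37 ± 0.28 (SE), edgeR adjusted p = 3.2e-05). Tfpi, the inhibitor of tissue factor, went the other way, at 196, 131 and 290.0 CPM against 435, 510.4 and 647 CPM (log2 fold change -1.34 ± 0.19 (SE), edgeR adjusted p = 1.7e-04). In none of these 3 genes did the populations overlap. Of shear stress and vessel tone genes, 12 were higher and 1 lower of 15 tested, and 8 and 0 without WD+F+CCl4 replicate 3. Ednrb, a receptor of endothelin, was at 705, 984 and 1060.2 CPM against 88.3, 236 and 390.4 CPM (log2 fold change 2.13 ± 0.25 (SE), edgeR adjusted p = 2.7e-05). Ace, which makes angiotensin II, was at 55.1, 95.2 and 87.4 CPM against 14.02, 38.1 and 22.8 CPM (log2 fold change 1.86 ± 0.25 (SE), edgeR adjusted p = 1.0e-04). The shear-responsive factor Klf4 was higher too, at 335, 109 and 124 CPM against 120.5, 30.5 and 44.7 CPM (log2 fold change 1.46 ± 0.17 (SE), edgeR adjusted p = 3.4e-05), and HFD+F+CCl4 replicate 1 was highest in both populations. Adm, the vasodilator adrenomedullin, was the gene that was lower (log2 fold change -1.48 ± 0.31 (SE), edgeR adjusted p = 0.0055). Klf2 and the nitric oxide synthase Nos3 were higher with values that overlapped between mice.

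Of 17 matrix genes tested, 8 were higher and 3 lower. The counts were 5 and 0 without WD+F+CCl4 replicate 3, and 7 and 1 without the mouse block. The elastic fibre genes Fbln5 and Eln and the calcification inhibitor Mgp were higher, Mgp at 93.9, 458 and 103 CPM against 4.67, 0 and 0.326 CPM (log2 fold change 5.69 ± 0.42 (SE), edgeR adjusted p = 1.7e-07) and Eln at 290.0, 508 and 121 CPM against 31.7, 0 and 0.326 CPM (log2 fold change 4.2 ± 0.43 (SE), edgeR adjusted p = 6.9e-06). The levels of all 3 were highest in HFD+F+CCl4 replicate 2. Sparc, Loxl2 and the basement membrane collagen Col4a2 were lower, Sparc at 1107, 603 and 1393 CPM against 1722, 1508 and 1965 CPM (log2 fold change -0.80 ± 0.19 (SE), edgeR adjusted p = 0.011). In TGF-β and BMP signaling, 6 of 17 tested were higher and 2 lower, and 4 and 0 without WD+F+CCl4 replicate 3. The ligand Tgfb2 was at 125, 163 and 81.9 CPM against 4.15, 0 and 0.979 CPM (log2 fold change 5.45 ± 0.35 (SE), edgeR adjusted p = 4.2e-08), while Tgfb1 was lower, at 435, 295 and 323 CPM against 622, 510.4 and 457 CPM (log2 fold change -0.59 ± 0.17 (SE), edgeR adjusted p = 0.036). The BMP targets Id1, Id2 and Id3 were each higher, with log2 fold changes of 0.71, 1.17 and 0.71. Among VEGF, angiopoietin and Notch genes, 4 were higher and 3 lower of 16 tested, and 2 and 3 of 15 without WD+F+CCl4 replicate 3. The Notch ligand Jag1 was at 118, 127 and 143 CPM against 15.6, 0 and 18.6 CPM (log2 fold change 2.98 ± 0.25 (SE), edgeR adjusted p = 6.4e-07) and the lymphangiogenic ligand Vegfc at 167, 63.5 and 151 CPM against 47.8, 45.7 and 57.8 CPM (log2 fold change 1.48 ± 0.20 (SE), edgeR adjusted p = 9.0e-05). Angpt2, which antagonizes Tie signaling, was lower, at 10.2, 0 and 31.9 CPM against 106, 53.3 and 64.6 CPM (log2 fold change -1.99 ± 0.39 (SE), edgeR adjusted p = 0.0033).

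Lipid uptake and handling genes were lower in 5 and higher in 1 of 12 tested, and 6 did not pass. Without the mouse block 0 of the 12 passed, and with cells thinned to 1000 UMIs 1 of 8 was lower and 1 higher. The fatty acid receptor Cd36 was at 1037, 281 and 1435 CPM in the members and 1952, 1722 and 2031 CPM in the sinusoidal cells (log2 fold change -1.24 ± 0.28 (SE), edgeR adjusted p = 0.0089), with the members of HFD+F+CCl4 replicate 2 lowest. Gpihbp1, which carries lipoprotein lipase, Fabp5, Plin2 and Angptl4 were lower too, and the cholesterol exporter Abca1 was higher, at 325, 508 and 376 CPM against 135, 206 and 253 CPM (log2 fold change 0.97 ± 0.19 (SE), edgeR adjusted p = 0.0027). Antigen presentation genes were lower in 3 and higher in 0 of 10 tested. These were the class II genes Cd74, H2-Aa and H2-Ab1, with log2 fold changes of -0.89, -0.85 and -0.59. Of the 10 genes, 0 passed without WD+F+CCl4 replicate 3, without ranked doublets or without the mouse block. In members with 0 UMIs of Stab2 and Clec4g, 2 of 10 were higher and 0 lower. In cells of both populations with 0 UMIs of Pf4, Ppbp, Dcn and Ptprc, the log2 fold changes of Cd74 and H2-Ab1 were 0.01 and 0.31, so neither was lower there. Interferon response genes were higher in 4 of 15 tested and lower in 0, and higher in 2 of 14 without WD+F+CCl4 replicate 3. Ly6a, a surface marker of larger vessels, was at 1287, 1378 and 1935 CPM against 448, 899 and 641 CPM (log2 fold change 1.27 ± 0.20 (SE), edgeR adjusted p = 4.4e-04), and Gbp2, Gbp4 and Ly6e passed too.

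Of the 18 endothelial identity genes, 5 passed, beside 8.73% of all genes tested. Of these, 3 were higher (Tek, Cd34 and Pecam1) and 2 lower (Robo4 and Cldn5). None of the 18 passed without WD+F+CCl4 replicate 3 or without the mouse block, and without HFD+F+CCl4 replicate 2, 8 were higher and 2 lower. Of the 13 that did not pass, Cdh5 stood at 941, 1074 and 949 CPM in the members and 843, 998 and 889 CPM in the sinusoidal cells (log2 fold change 0.11 ± 0.16 (SE), edgeR adjusted p = 0.80). Leukocyte adhesion and chemokine genes were higher in 3 and lower in 2 of 10 tested, and 1 and 2 of 9 without WD+F+CCl4 replicate 3, with Vcam1 higher (log2 fold change 0.88 ± 0.23 (SE), edgeR adjusted p = 0.026) and Cxcl10 lower (log2 fold change -1.58 ± 0.28 (SE), edgeR adjusted p = 0.0016). Junction genes were higher in 3 and lower in 1 of 10, with Jam2 at 901, 1446 and 1010.3 CPM against 176, 335 and 336 CPM (log2 fold change 1.98 ± 0.19 (SE), edgeR adjusted p = 3.0e-06). The junction counts were 2 and 0 without WD+F+CCl4 replicate 3, and also without the mouse block. Mesenchymal genes were higher in 1 and lower in 2 of 7 tested of 14, cell cycle genes lower in 1 of 4 tested of 12, ribosomal protein genes higher in 2 of 12, and immediate early and heat shock genes higher in 2 of 17. None of the cell cycle, ribosomal protein and immediate early calls held without WD+F+CCl4 replicate 3. The higher mesenchymal call did not hold there either, and 0 of 7 mesenchymal genes passed without the mouse block. Without HFD+F+CCl4 replicate 2, 1 mesenchymal gene was higher and 5 lower of 11 tested. Of the genes the study itself named in other cells, 1 of 10 tested was lower, Tgfb1, and that list was chosen on these samples and is no independent evidence. This call was lost without WD+F+CCl4 replicate 3, without HFD+F+CCl4 replicate 1 and without the mouse block.

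RNA of other cell types was present in both populations. In cells with 0 UMIs of Pf4, Ppbp, Dcn and Ptprc, 515 genes passed, with 10 of 13 venous and 8 of 13 arterial genes higher and 12 of 16 sinusoidal genes lower. The part of the remaining markers in these results was not tested. Hepatocyte genes were lower in 7 of 9 tested of 12, and in 2 of 9 without the mouse block. Their 12 genes summed to 953.7, 720.8 and 371.9 CPM in the members and 1596, 3070 and 851 CPM in the sinusoidal cells, led by Alb. The 14 macrophage genes summed to 2028, 1079 and 1105 CPM in the members and 2646, 1988 and 1333 CPM in the sinusoidal cells, led by Lyz2, and 1 of 12 tested was lower. Among stellate genes, Ecm1 was higher and Rgs5 and Col3a1 lower of 3 tested of 11, while Pdgfrb and Pdgfra were at 0. Gpm6a was the single mesothelial gene tested of 4, and was higher at 174, 408 and 74.9 CPM against 15.1, 7.62 and 10.8 CPM with the other 3 at 0. Platelet and bile duct genes had 0 genes tested, B cell genes 0 of 2 past the test, T and NK genes 0 of 1, and neutrophil genes 0 of 3. In the members the 6 neutrophil genes summed to 515, 136 and 283 CPM, led by S100a9, with Ly6g at 0. Of the erythroid genes, 1 of 4 tested was higher, Hbb-bt, and without WD+F+CCl4 replicate 3 its log2 fold change turned to -0.90.

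The members differed among themselves in venous, arterial and sinusoidal RNA. Rspo3 was seen in 57.5%, 61.2% and 39.1% of the members of the 3 mice, beside 0.610%, 1.58% and 0.515% of T cells. For Gja5 the shares were 9.43%, 24.5% and 21.1% of members, and at most 0.257% of T cells in any of these mice. The Stab2 shares were 38.7%, 8.16% and 51.1%, beside 4.27%, 1.72% and 6.44% of T cells, lowest in HFD+F+CCl4 replicate 2. Of 143 members with Rspo3, 1 held Gja5 (0.699%, exact 95% interval 0.0177% to 3.84%), against 49 of the 145 without Rspo3 (33.8%, interval 26.2% to 42.1%). Median depths were 3915 UMIs with Rspo3 and 4190 UMIs without, but in HFD+F+CCl4 replicate 2 the cells with Rspo3 were the deeper ones, at 4426 against 2544 UMIs. In each mouse the order was the same, at 0 of 61, 0 of 30 and 1 of 52 cells with Rspo3 against 10 of 45, 12 of 19 and 27 of 81 without. Wnt9b went with Rspo3, in 83 of 143 cells with it and 6 of 145 without. None of the 50 cells with Gja5 held Wnt9b (0 of 50, exact 95% interval up to 7.11%, and 6% by the floor of 3 counts), against 89 of 238 without Gja5. The Notch ligand Dll4 was in 34 of those 50 and 52 of the 238. Bmx, also of the arterial list, was in 16 of the 50 and 45 of the 238. By Rspo3, Bmx was in 41 of the 143 cells with it and 20 of the 145 without. Stab2 was in 19 of the 143 cells with Rspo3 and 94 of the 145 without. By Gja5 the mice did not share a direction, with Stab2 in 5 of 10 cells with Gja5 and 36 of 96 without in HFD+F+CCl4 replicate 1, in 1 of 12 and 3 of 37 in HFD+F+CCl4 replicate 2, and in 10 of 28 and 58 of 105 in WD+F+CCl4 replicate 3. Cells of a mouse share their library, so these counts are descriptions.

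**Figure D4:**
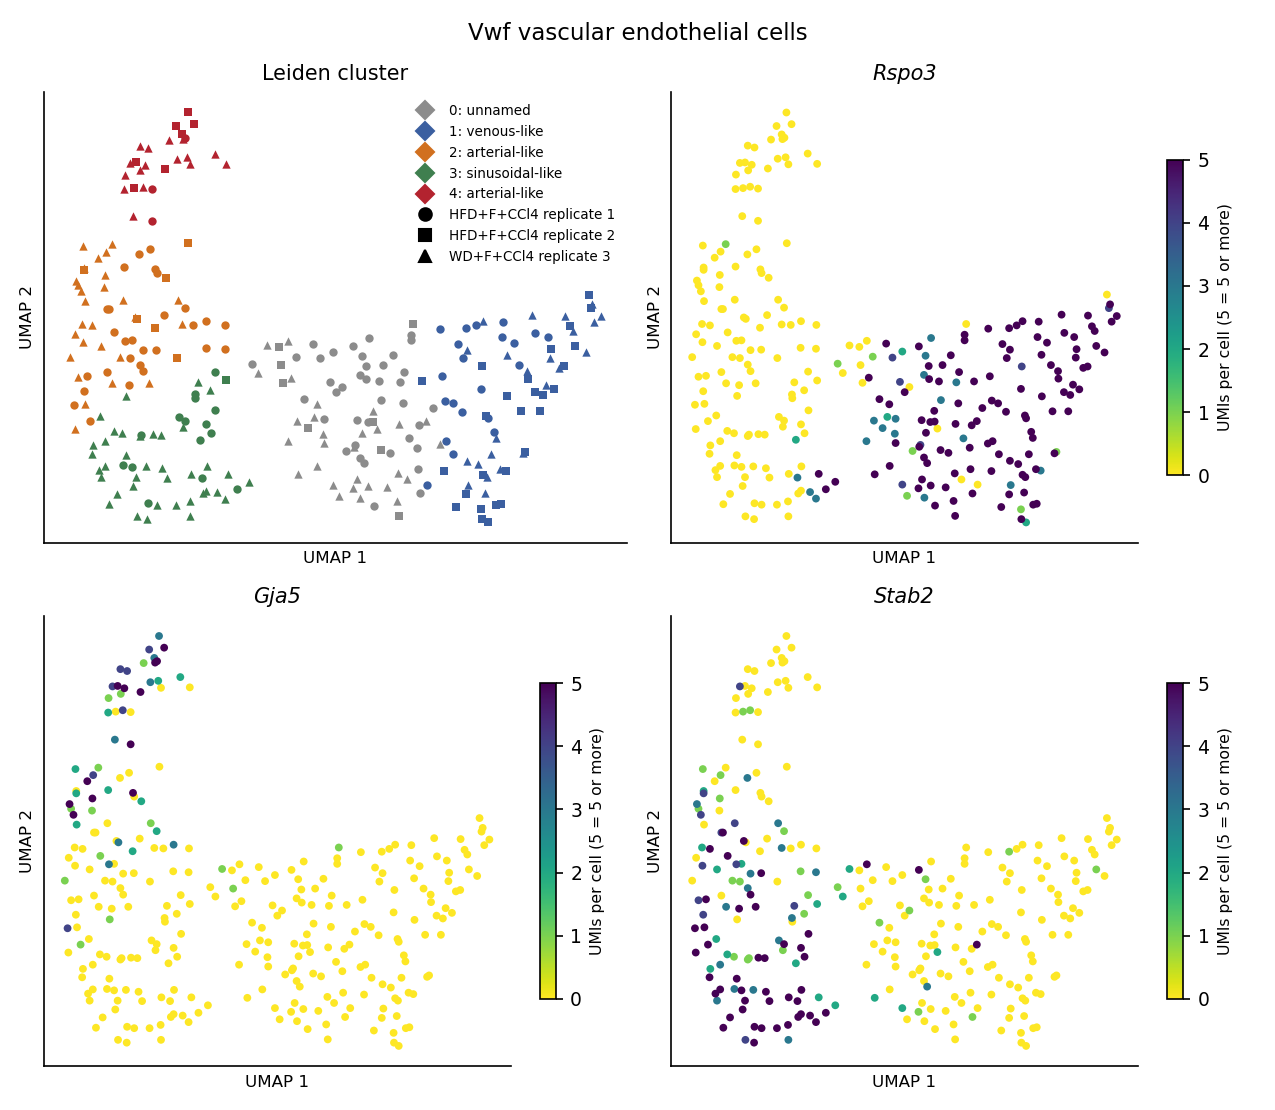
The 288 members on a UMAP embedding, axes without units, with each point 1 cell colored by its cluster (with a shape for the mouse) or by its UMIs of Rspo3, Gja5 and Stab2, where the color scale ends at 5 UMIs. Most cells with Gja5 lie apart from most cells with Rspo3, some lie among them, and 1 of 143 cells with Rspo3 also held Gja5.

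Clustering of the members gave 5 clusters, described without a test since they were made from the RNA of the same cells, through its 2000 most variable genes. Cluster 1 (71 cells, 21, 27 and 23 in the 3 mice) was venous-like, with 8 of 13 venous markers at least 1 log2 unit above the other members, led by Fndc1, Nts and Fmo2. There Rspo3 was found in 97.2% of cells and Wnt9b in 71.8%, and the median was 15 Vwf UMIs, the most of all clusters. Cluster 4 (26 cells, 3, 7 and 16 in the 3 mice) was arterial-like with 11 of 17 markers higher, led by Mgp, Sfrp1 and Col8a1. In it 84.6% of cells held Gja5. Cluster 2 (61 cells, 28, 6 and 27) was also arterial-like, with 10 of 17 markers higher, led by Igfbp5, Atp13a3 and Efnb1. Pooled over the mice, it differed from cluster 4 in its sinusoidal RNA, with Stab2 in 67.2% of cells against 11.5%, and in its Vwf, with a median of 5 UMIs against 10.5. Per mouse, Stab2 was in 67.9%, 16.7% and 77.8% of cells against 0%, 14.3% and 12.5%. Vwf stood at 946, 2012 and 2405 CPM against 840, 3822 and 3544 CPM, so HFD+F+CCl4 replicate 1 went the other way. Of the 17 arterial markers, 2 were also at least 1 log2 unit higher in the venous-like cluster 1. Bmx was in 42.9%, 48.1% and 43.5% of cluster 1 cells in the 3 mice. It was in 7.14%, 0% and 11.1% in cluster 2 and 33.3%, 85.7% and 37.5% in cluster 4. Edn1 was at 1076, 1802 and 2066 CPM in cluster 1. It was at 284, 447 and 587 CPM in cluster 2 and 660, 770 and 2326 CPM in cluster 4. Cluster 3 (54 cells, 15, 1 and 38) was sinusoidal-like, with 14 of 18 markers higher, Stab2 in 96.3% of cells and a median of 2 Vwf UMIs, the least that the rule lets in. Cluster 0 (76 cells, 39, 8 and 29) stayed unnamed. Its leading genes were Cd52, Bmp4, Il17ra, Gm38070 and H2-Eb1, Rspo3 was found in 86.8% of its cells, and its median depth of 2911 UMIs was the lowest of the 5, with 6 of the 13 cells ranked as doublets.

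**Figure D5:**
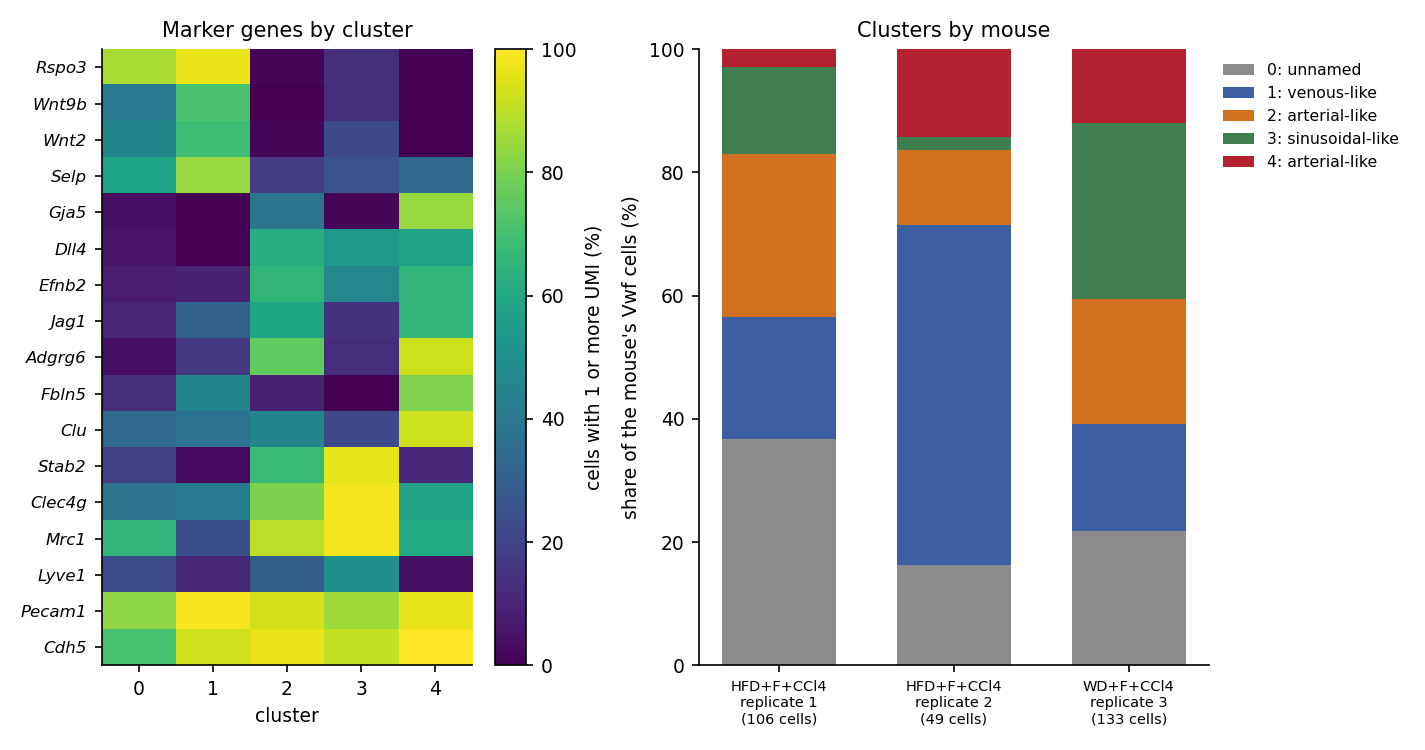
Left, percentage of cells of each cluster with a UMI of marker genes; right, percentage of each mouse's members in each of the 5 clusters. The venous-like cluster holds 55.1% of the members of HFD+F+CCl4 replicate 2 and 19.8% and 17.3% of those of HFD+F+CCl4 replicate 1 and WD+F+CCl4 replicate 3.

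The make-up differed between the mice. Cluster 1 held 19.8%, 55.1% and 17.3% of the members of the 3 mice, and cluster 3 held 14.2%, 2.04% and 28.6%. HFD+F+CCl4 replicate 2 had a lone member in cluster 3, and low Stab2, Lyve1 and Dnase1l3 sums above. Stab2 and Dnase1l3 are among the leading genes of cluster 3, so these are not separate observations. With 1 WD+F+CCl4 mouse no test of these shares between models was made.

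Between the diets the members could be set side by side in 1 WD+F+CCl4 mouse and 2 HFD+F+CCl4 mice, and in no comparison with control mice, which held 13 and 0 such cells. With 1 mouse, the diet and the mouse cannot be told apart, and the fit assumes that it varies like the other two. Of 8407 genes tested, 15 passed (0.178%), 6 higher (0.0714%) and 9 lower (0.107%) in the WD+F+CCl4 mouse, with 1 residual degree of freedom. DESeq2 passed 0 genes (47 at an unadjusted p under 0.05, against 256 by edgeR), and 0 passed by edgeR (111 unadjusted) when the rule asked for 3 Vwf UMIs. The values are given to show how the mice vary. Hemoglobin genes were among the 6 genes higher in the WD+F+CCl4 mouse, with Hbb-bs at 0, 385 and 1536 CPM and Hbb-bt at 2.04, 54.4 and 411 CPM in the members. These genes have near-identical copies, so the split of reads between them is uncertain. Hbb-bs was seen in 0%, 16.3% and 6.02% of members, beside 0.610%, 24.1% and 6.69% of T cells of the same mice. In each mouse the share in members was below that in T cells, and the difference was not tested. In members with 0 UMIs of Stab2, Clec4g, Pf4, Ppbp, Dcn and Ptprc, the direction reversed for Hbb-bs, Hba-a1 and Hba-a2. Their log2 fold changes there were -4.34, -7.51 and -2.97, lower in the WD+F+CCl4 mouse. Hpgd, which degrades prostaglandins, was at 71.5, 45.3 and 214 CPM, and Aass, a lysine catabolic enzyme of the sinusoidal list, at 55.1, 4.53 and 162 CPM. Both values of the HFD+F+CCl4 mice lay below that of the WD+F+CCl4 mouse.

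Among the 9 genes that were lower in the WD+F+CCl4 mouse, Gpnmb, a glycoprotein of lipid-laden macrophages, stood at 125, 204 and 19.4 CPM in the members and at 156, 107 and 31.99 CPM in the sinusoidal cells of the same mice, where the WD+F+CCl4 mouse was again lowest. The adhesion molecule Ncam1 was at 65.3, 263 and 30.5 CPM in the members and 7.79, 0 and 0 CPM in the sinusoidal cells. Alcam, another adhesion molecule, was at 77.6, 177 and 27.8 CPM and the Rac regulator Chn2 at 79.6, 131 and 19.4 CPM. The immunoglobulin gene Igkc, a B cell and plasma cell gene, was at 167, 86.1 and 26.4 CPM, and the serpin Serpina1e, of a family of near-identical hepatocyte genes, at 87.8, 36.3 and 5.55 CPM. Gm38070 and the pseudogene Gpx4-ps2 also passed. Ncam1 was also a leading gene of cluster 1, and Igkc and Gm38070 of cluster 0, and the part of cluster make-up in these differences was not tested. The heat shock gene Hspa1a was at 131, 9.07 and 13.9 CPM, where HFD+F+CCl4 replicate 2 lay below the WD+F+CCl4 mouse, so the call rested on HFD+F+CCl4 replicate 1, whose 18 immediate early and heat shock genes summed to 2818 CPM against 966 and 1381 CPM in the other two mice. Of the lists, 0 of 13 venous and 0 of 13 arterial genes passed, and 1 of 18 sinusoidal genes, Aass. On simulated data of this comparison, edgeR recovered 26.5% of 200 genes changed by 2 log2 units. A count of 0 here therefore does not show that the genes were unchanged. All 4 erythroid genes tested passed as higher.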

How the data were processed

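Livers of 8 mice were profiled by droplet single-cell RNA sequencing. The authors demultiplexed reads with bcl2fastq 2.20 and deposited one matrix of raw UMI counts per gene and barcode from Cell Ranger on mouse GRCm38, with the mouse given by the barcode suffix. All 55450 gene IDs matched GENCODE M21. The 108 symbols shared by several genes were kept apart by ID. The sources used here do not say whether doublets or free RNA were removed before deposit. The cell rule is stated in the report. Members and gene lists were chosen with earlier results of these data known, and p-values measure the spread between these mice. The doublet caller's own limit marked 0 to 13.8% of cells per library, so doublets were taken by rank of its score, at 0.8% per 1000 barcodes, and removed only in an alternative.

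Counts were summed per mouse and population and tested with edgeR 4.0.16 (R 4.3.3) by its quasi-likelihood test, with TMM scaling, filterByExpr at a minimum count of 10, and Benjamini-Hochberg adjustment over all genes tested at 0.05. The samples pair by mouse because both populations come from the same animal. DESeq2 1.42.0, no filter, no scaling, thinning and stricter cell rules were alternatives. The fits were tested on simulated data. Clusters came from scanpy 1.11.5 and leidenalg 0.10.2 (2000 genes, 20 components, 15 neighbors, resolution 0.5). Shares were compared by exact permutation over mice. Intervals are exact (95%) and a count of 0 allows up to 3 counts, both covering counting error only.

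Named genes are the 8 largest rises and falls among genes past the test with a mean log2 CPM over 5 and no overlap over mice, up to 4 of each list by smallest p, the genes the study named, and the rule genes. Nr2f2, Dll4, Gata4, F8, Cdh5, Nos3, Klf2, Loxl2, Col4a2, Plin2, Angptl4, Ltbp4, Efnb2, Sox17, Id1, Id3, Tgfb1, Pecam1 and the genes found by the diet comparison beyond these were named after their values were seen.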

Additional observations from a re-analysis of the deposited data

How the results depend on the processing

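For the members against the sinusoidal cells, the 716 genes became 748 without scaling beyond library size, 602 with DESeq2, 985 without the filter on low counts, 967 with at least 3 Vwf UMIs, 721 without ranked doublets and 803 under 10% mitochondrial UMIs. They became 371 to 1146 when a mouse was left out, 371 without WD+F+CCl4 replicate 3 and 1146 without HFD+F+CCl4 replicate 2. Alternatives chosen after seeing the data gave 260 genes with each cell thinned to 1000 UMIs, where only 2619 genes could be tested, 341 without the replicate block by mouse, 515 in cells with 0 UMIs of Pf4, Ppbp, Dcn and Ptprc, and 543 in members with 0 UMIs of Stab2 and Clec4g. Over 88 named genes and 13 settings, 946 of 1089 values kept direction and side of the threshold, 136 lost the call, 2 gained it and 5 reversed. In cells with 0 UMIs of Pf4, Ppbp, Dcn and Ptprc the log2 fold change was 0.0060 for Cd74, 0.31 for H2-Ab1 and -2.85 for Hbb-bt, and H2-Ab1 was at 0.23 in members with 0 UMIs of Stab2 and Clec4g. Leaving out a mouse moved Hbb-bt from -0.90 to 1.84. The causes were not tested.

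For WD+F+CCl4 against HFD+F+CCl4, 15 genes became 0 with DESeq2 and 0 with at least 3 Vwf UMIs, 7 without the filter, 4 with cells thinned to 1000 UMIs and 5 in members with 0 UMIs of other cells' markers and of Stab2 and Clec4g. In the last the log2 fold changes were -4.34 for Hbb-bs, -7.51 for Hba-a1 and -2.97 for Hba-a2. Of 113 values of the 15 genes over 8 settings, 54 stayed, 56 lost the call and 3 reversed. The planned gene tests against control were not run, since control mice had under 20 members. Leaving out a mouse was not run for the models, since with 3 mice and 1 residual degree of freedom it leaves none, or no WD+F+CCl4 mouse. No paired analysis of the models was made, since their replicate numbers label different mice.

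The share difference between the models ranged from -0.422 to 0.131 percentage points of kept cells and from -5.25 to 0.138 of endothelial-gated cells when a mouse was left out, and was 15.5 points in endothelial-gated cells with Pecam1 or Cdh5 thinned to 1000 UMIs, an alternative chosen after seeing the data. The differences between NASH and control mice kept their sign in each such fit. Depth limits these results: the 3 sums of members hold 220575 to 720586 UMIs, and 2 control mice with 13 and 0 such cells leave no test of their genes.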

Other observations

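The clusters had further leading genes, given here as descriptions without a test. In the arterial-like cluster 4, Mgp stood at 1614 CPM against 24.4 CPM in the other members, and Cyp1a1, an enzyme induced through the aryl hydrocarbon receptor, at 751.6 against 15.98 CPM, in 76.9% of its 26 cells. Col8a1, a short-chain collagen of vessel walls, was at 674.7 against 9.90 CPM. In the arterial-like cluster 2, Igfbp5, a binding protein of insulin-like growth factors, stood at 2349 against 199.9 CPM, and the lymphangiogenic ligand Vegfc at 414.6 against 61.8 CPM. The venous-like cluster 1 led in the matrix genes Col6a3, at 430.9 against 40.7 CPM, and Aebp1, at 240.9 against 18.9 CPM. In the sinusoidal-like cluster 3, Esm1, a proteoglycan of sprouting endothelium, stood at 547.8 against 50.5 CPM and was found in 38.9% of cells.

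The members with 6 or more Vwf UMIs, 149 cells with a median of 5104 UMIs, held Rspo3 in 61.7%, Gja5 in 24.8% and Stab2 in 24.2% of cells. The 65 members with 2 Vwf UMIs had a median of 3125 UMIs and shares of 29.2%, 3.08% and 63.1% for these genes. Depth and Vwf level move together here and their parts were not tested.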
